A study of Mus musculus with 1989 samples.

Results

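The late maturation genes are 5 genes, Cd52, Cd53, Shisa5, Ms4a4b and Ltb, of the 8846 genes in an scRNA-seq table of mouse thymocytes, together with the 48 scATAC-seq peaks nearest to their starts, of 138317 peaks. They were chosen by their RNA levels in these same cells, which are high late in the development of thymocytes, so the difference between late and early cells chose them and is given as a description only. The cells came from thymus of C57BL/6 mice that the labels give as males of 7 weeks. The scRNA-seq set is 1 library of 1993 total thymocytes, and the scATAC-seq set used here holds 1084 total thymocytes in 36 numbered sets and cells sorted as DN (182), DP (125), CD4 (119) and CD8 (116). The sources name no allele and no treatment for these mice, and they tie no cell to an animal. Each group is therefore treated as 1 sample, no test between groups was made, SDs are over cells and intervals cover counting error only.

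T cell precursors pass from double-negative (DN) cells through immature single-positive (ISP) cells to double-positive (DP) cells that carry both CD4 and CD8. DP cells divide as blasts (DPbla), rearrange the T cell receptor alpha genes (DPre) and are then tested on self peptides (DPsel). Selected cells become CD4 or CD8 single-positive (SP) cells, move to the medulla, and leave for the blood once they express the receptors for exit. Cd52 encodes a short GPI-anchored glycoprotein of the lymphocyte surface. Cd53 encodes a tetraspanin found on leukocytes. Shisa5, also called Scotin, encodes a membrane protein of the endoplasmic reticulum that p53 can induce and that has been tied to cell death. Ms4a4b encodes a membrane protein of the MS4A family that is expressed in T cells. Ltb encodes lymphotoxin beta, a TNF family ligand that holds lymphotoxin alpha at the membrane and signals to the stroma of lymphoid organs.

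On GRCm38 (GENCODE vM21) Cd52 lies at chr4:134082448-134095082 on the minus strand, Cd53 at chr3:106759921-106790149 on the minus strand, Shisa5 at chr9:109038565-109057777 on the plus strand, Ms4a4b at chr19:11443553-11467055 on the plus strand and Ltb at chr17:35194439-35196320 on the plus strand. The gene model of Cd52 overlaps that of Crybg2, and the start of Ubxn11 lies 7488 bp from that of Cd52. Ltb sits in a dense stretch of the MHC region, with the starts of Lst1, Tnf, Lta and Aif1 within 20 kb. RefSeq (GRCm38.p6) gave promoter sequence for 4 of the 5 genes; Cd52 was not among them. The bases before the start are printed so that the letters of transcription factors active in thymocytes can be compared between the genes. Capitals mark the letters CACCC (Klf), TGTGGT (Runx) and the NF-kB motif on either strand, and each sequence ends at the earlier of the RefSeq and GENCODE starts.
Cd53 promoter, chr3:106790150-106790399, minus strand: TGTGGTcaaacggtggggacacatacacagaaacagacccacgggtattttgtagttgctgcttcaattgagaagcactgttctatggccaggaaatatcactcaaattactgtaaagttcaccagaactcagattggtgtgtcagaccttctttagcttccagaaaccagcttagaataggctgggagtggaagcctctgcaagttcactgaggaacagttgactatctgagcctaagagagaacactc
Shisa5 promoter, chr9:109038317-109038564, plus strand: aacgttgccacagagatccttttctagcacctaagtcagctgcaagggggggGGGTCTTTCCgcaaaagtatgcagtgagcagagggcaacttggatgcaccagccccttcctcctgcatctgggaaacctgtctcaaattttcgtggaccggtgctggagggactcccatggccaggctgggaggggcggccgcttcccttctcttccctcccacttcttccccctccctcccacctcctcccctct
Ms4a4b promoter, chr19:11443308-11443552, plus strand: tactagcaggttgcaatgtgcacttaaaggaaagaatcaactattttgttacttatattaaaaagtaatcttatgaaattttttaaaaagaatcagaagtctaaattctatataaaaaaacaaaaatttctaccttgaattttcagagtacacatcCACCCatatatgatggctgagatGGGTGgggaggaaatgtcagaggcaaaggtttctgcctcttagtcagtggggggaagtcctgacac
Ltb promoter, chr17:35194257-35194438, plus strand: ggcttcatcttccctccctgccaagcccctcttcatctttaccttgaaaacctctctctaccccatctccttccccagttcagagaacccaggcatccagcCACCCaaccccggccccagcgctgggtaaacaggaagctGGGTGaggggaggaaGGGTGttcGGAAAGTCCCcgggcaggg

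The NF-kB letters stood in the Shisa5 and Ltb promoters and in 1.40% of 27025 promoters of 250 bases before the start. The Klf letters stood in the Ms4a4b and Ltb promoters and in 51.3% of all promoters. The Runx letters stood in the Cd53 promoter, at its far end, and in 14.2% of all promoters. The Ets letters GGAAG (not in capitals) stood in all 4 sequences and in 63.6% of promoters. The Ms4a4b promoter had the lowest GC content, 34.7%, against 45.2% for Cd53, 59.7% for Shisa5 and 60.4% for Ltb. A match of letters is a description of the sequence and not a bound site.

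The RNA values are log2 values after quantile normalization by the authors, with zeros kept. A cell had at least 830 genes above 0 (median 1484), and of the 1993 cells 1986 had 500 to 4500 genes and 7 had more. Reads per cell are not recoverable from these values, so a cell's depth was taken as the sum over its genes of the rank of each value among the distinct values of that cell, here called steps (1356 to 22539, median 2558), and each cell was thinned to 1300 steps where shares of cells are compared. Clustering gave 17 clusters. Of these, 1 had DN markers (78 cells), 2 ISP (163), 3 DPbla (339) and 3 DPre markers (497 cells, here DPre 1 to DPre 3), and 1 further dividing cluster of 151 cells had no name. The 5 late clusters are numbered by their median place in the order of the cells. Late 1 (162 cells) scored as DPsel-like, with 0 DPsel markers among its top 10 genes, which include Cd28, Ikzf2 and Rgs10. The ISP clusters and the DPbla cluster of 72 cells also had 0 markers of their class among their top 10 genes. Late 2 (171 cells; Itm2a, Bcl2), late 3 (71 cells; Ifi27l2a, Ikzf2) and late 5 (148 cells; Klf2) could not be assigned to 1 class and stayed unnamed, and late 4 (147 cells) scored as CD8sp-like, with 0 CD8sp markers among its top 10 genes. A cluster with markers of nonconventional lymphocytes (NCL) had 31 cells and an antigen-presenting (APC) cluster 35. Members are themselves among the leading genes of late 2 to late 5, so the level of a member in a cluster is not independent of how the cells were grouped.

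Cd52 was already higher in the later DPre clusters and was the gene detected in most late cells. Its mean log2 value was 0.96 ± 0.96 (SD, n = 78 cells) in DN, 0.78 ± 0.63 in ISP and 0.96 ± 0.85 in DPbla cells. It was 1.04 ± 0.90 in DPre 1, 1.45 ± 1.15 in DPre 2 and 2.12 ± 1.29 in DPre 3, so the means are ordered across the DPre clusters, with differences between neighbours below their SDs. It was 2.47 ± 1.38 in late 1, 4.24 ± 0.97 in late 2, 3.83 ± 1.23 in late 3, 4.61 ± 0.63 in late 4 and 4.75 ± 0.70 in late 5. The largest step between neighbours in this order lay between late 1 and late 2, where the difference was 1.76, and the levels of late 4 and late 5 differed by less than their SD. The difference between DPre 3 and DPre 1, was 1.08, and 0.6% of 6838 genes were higher by at least 0.5. In thinned cells Cd52 was detected in 38.1% of DPbla (exact 95% interval 32.9 to 43.5%), 53.7% of DPre 1 (44.4 to 62.8%), 78.7% of DPre 3 (71.9 to 84.6%) and 100% of late 5 cells (97.5 to 100%).

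Cd53 was near 0 in DPre cells, intermediate in late 1 and at similar levels in late 2 to late 5. Its mean log2 value was 0.04 ± 0.17 (SD, n = 339 cells) in DPbla, 0.02 ± 0.14 in DPre 1, 0.05 ± 0.19 in DPre 2 and 0.07 ± 0.26 in DPre 3. It was 0.65 ± 0.98 in late 1 and 1.31 ± 1.02 in late 2, and 1.16 ± 1.01, 1.10 ± 0.88 and 1.34 ± 0.98 in late 3, late 4 and late 5. The means of late 2 to late 5 all lie within 1 SD of one another, and late 4 and late 5 together were 0.09 below late 2. In thinned cells the gene was detected in 1.65% of DPre 1 cells (0.20 to 5.84%), 4.60% of DPre 3 (2.01 to 8.86%), 32.1% of late 1 (25.0 to 39.9%) and 59.6% of late 2 cells (51.9 to 67.1%). DN cells also held Cd53, at 0.41 ± 0.59 and in 14.1% of thinned cells (7.26 to 23.8%), against 2.95% of DPbla cells (1.42 to 5.36%).

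The mean of Shisa5 was higher in each late cluster than in the one numbered before it, by little between late 3 and late 4. Its mean log2 value was 0.60 ± 0.67 (SD, n = 78 cells) in DN, 0.18 ± 0.36 in DPbla, 0.19 ± 0.36 in DPre 1 and 0.44 ± 0.69 in DPre 3. It was 1.16 ± 0.99 in late 1, 1.79 ± 1.19 in late 2, 2.64 ± 1.09 in late 3, 2.70 ± 1.05 in late 4 and 3.00 ± 0.89 in late 5. Late clusters next to each other in this order differed by less than their SDs, whereas late 4 and late 5 together lay 1.69 above late 1, more than the SDs of 0.98 and 0.99. In thinned cells it was detected in 13.2% of DPre 1 (7.75 to 20.6%), 52.5% of late 1 (44.5 to 60.4%), 71.9% of late 2 (64.6 to 78.5%), 90.1% of late 3 (80.7 to 95.9%), 85.7% of late 4 (79.0 to 90.9%) and 96.6% of late 5 cells (92.3 to 98.9%).

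Ms4a4b was low in late 1 and late 2 and higher in late 3, late 4 and late 5, though the order does not set late 2 and late 3 apart. Its mean log2 value was 0.04 ± 0.17 (SD, n = 339 cells) in DPbla, 0.11 ± 0.33 in DPre 3, 0.20 ± 0.44 in late 1 and 0.35 ± 0.78 in late 2. It was 1.29 ± 1.29 in late 3, 1.64 ± 1.18 in late 4 and 2.21 ± 1.33 in late 5. The difference between late 4 and 5 together and late 2 was 1.58, and 0.488% of 6769 genes were higher by at least 0.5; the choice of the gene and of the clusters favoured such a difference. In thinned cells it was detected in 14.6% of late 2 (9.69 to 20.8%), 53.5% of late 3 (41.3 to 65.5%), 65.3% of late 4 (57.0 to 73.0%) and 77.7% of late 5 cells (70.1 to 84.1%).

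Ltb was higher in DPre than in DPbla cells, and higher again in late 3, late 4 and late 5 than in late 1 and late 2. Its mean log2 value was 0.21 ± 0.39 (SD, n = 163 cells) in ISP and 0.35 ± 0.51 in DPbla cells, and 0.99 ± 0.93 in DPre 1, 1.04 ± 0.92 in DPre 2 and 0.90 ± 0.93 in DPre 3. It was 0.74 ± 0.97 in late 1 and 0.93 ± 1.06 in late 2, and 1.71 ± 1.28 in late 3, 1.99 ± 1.15 in late 4 and 1.81 ± 1.13 in late 5. In thinned cells it was detected in 17.1% of DPbla (13.3 to 21.5%), 46.3% of DPre 1 (37.2 to 55.6%), 54.5% of DPre 2 (47.3 to 61.5%), 37.0% of late 1 (29.6 to 45.0%) and 74.1% of late 4 cells (66.3 to 81.0%). The intervals of DPre 2 and late 1 do not overlap, and those of DPre 3 and late 1 do.

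**Figure D1:**
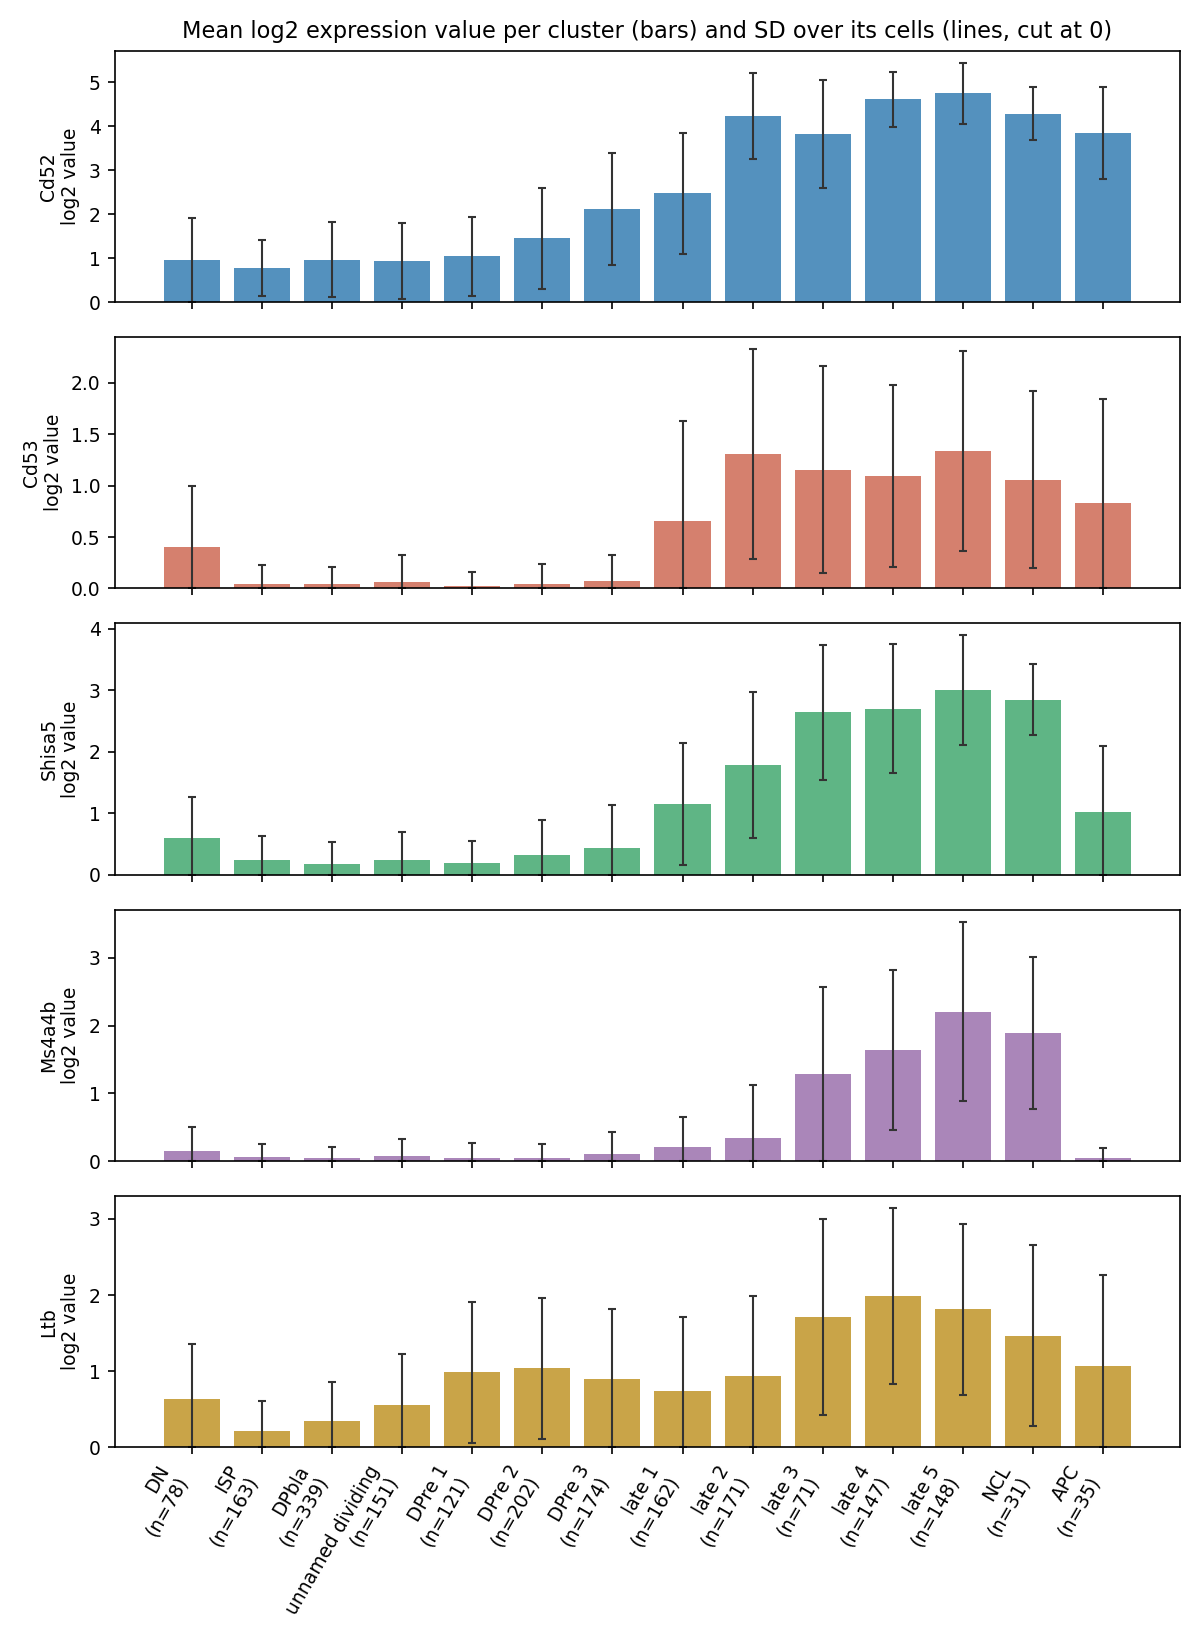
Each panel gives 1 gene; bars are mean log2 expression values per cluster, lines are the SD over cells (lower end cut at 0) and n is the number of cells. Cd52 goes up from 1.04 in DPre 1 to 2.12 in DPre 3, Cd53 is at most 0.07 in DPre clusters and 1.31 in late 2, Ms4a4b is 0.35 in late 2 and 1.29 in late 3, and Ltb is 0.35 in DPbla and 0.99 in DPre 1.

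Between all 699 late and all 1228 early cells, the difference that chose the genes, the mean log2 values were 3.97 ± 1.33 and 1.19 ± 1.06 (SD) for Cd52, 2.18 ± 1.26 and 0.28 ± 0.50 for Shisa5, 1.10 ± 1.01 and 0.07 ± 0.26 for Cd53, 1.08 ± 1.29 and 0.07 ± 0.24 for Ms4a4b, and 1.38 ± 1.21 and 0.63 ± 0.79 for Ltb. All 5 were higher in late cells by at least 0.5, as were 0.682% of 7917 genes, and nothing is read from this count. Ltb, at 0.75, lay closest to that limit. Early cells include the dividing cells, which are deeper, so the difference was also taken after thinning, on the log2(1 + steps) scale, where it was 1.96 for Cd52, 1.18 for Shisa5, 0.63 for Cd53, 0.63 for Ms4a4b and 0.45 for Ltb.

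From DPre 3 to late 1, 2 of the 5 genes were higher by at least 0.5, Cd53 by 0.58 and Shisa5 by 0.72, as were 0.675% of genes. From late 1 to late 2, 3 were, Cd52 by 1.76, Cd53 by 0.66 and Shisa5 by 0.63, as were 0.62% of genes. In late 3 against late 2, 3 were higher by at least 0.5, Ms4a4b by 0.94, Shisa5 by 0.85 and Ltb by 0.78, as were 0.338% of genes, while the differences were -0.41 for Cd52 and -0.15 for Cd53. These counts follow from how the genes and clusters were chosen and support nothing. Shisa5 is the gene counted in each of these comparisons, Cd53 in those that hold late 1, and Ms4a4b and Ltb in that of late 2 and late 3. Late 2 and late 3, at median positions of 0.823 and 0.833, are not set apart in the order. Their comparison is therefore not read as a later step. Of these differences, those of Cd53 and Shisa5 from DPre 3 to late 1 that of Cd52 from late 1 to late 2 and that of Ms4a4b from late 2 to late 3 are larger than the SD over cells in at least 1 of the clusters compared.

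The order of onset was read along an ordering of the thymocytes by population balance analysis. It puts each cell between 0 and 1 by its distance in the neighbor graph to 10 sink cells taken as most mature. These had the highest mean of Ccr7, Zbtb7b, Cd40lg, Il7r, Runx3 and Klf2. Klf2 was the closest partner of Ms4a4b (r = 0.58), so the place of Ms4a4b is not independent of how the order was made. The onset of a gene is the first position, from the middle of the DPre cells at 0.505 on, where its smoothed log2 value is midway between its DPre mean and its maximum. Cd53 came first at 0.699, then Cd52 at 0.723, Shisa5 at 0.762, Ms4a4b at 0.796 and Ltb at 0.828. Each gene lay within 0.05 of the next, the width taken as the tolerance, so neighbours in this order are not set apart. The genes kept this order in 6 of 8 settings, and Ms4a4b and Ltb came after the others, with Ltb last, in all 8. Ms4a4b and Ltb were nearly tied at 0.796 and 0.797 in the order made without the members. With 20 neighbors they were at 0.816 and 0.818, and with 30 principal components at 0.841 and 0.842. Ltb was already higher in DPre than in DPbla cells, so its midpoint is that of a second rise. When only detected or not was counted, Cd52 came first at 0.607, then Shisa5 at 0.672 and Cd53 at 0.699. With sink cells taken from each lineage, Shisa5 came before Cd52. The midpoints of Shisa5 and Ltb use a maximum that lies at the last cell of the order, and DN cells fell at 0.366, after the dividing clusters and just before DPre 1 at 0.386, so positions before DPre are not read as time.

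**Figure D2:**
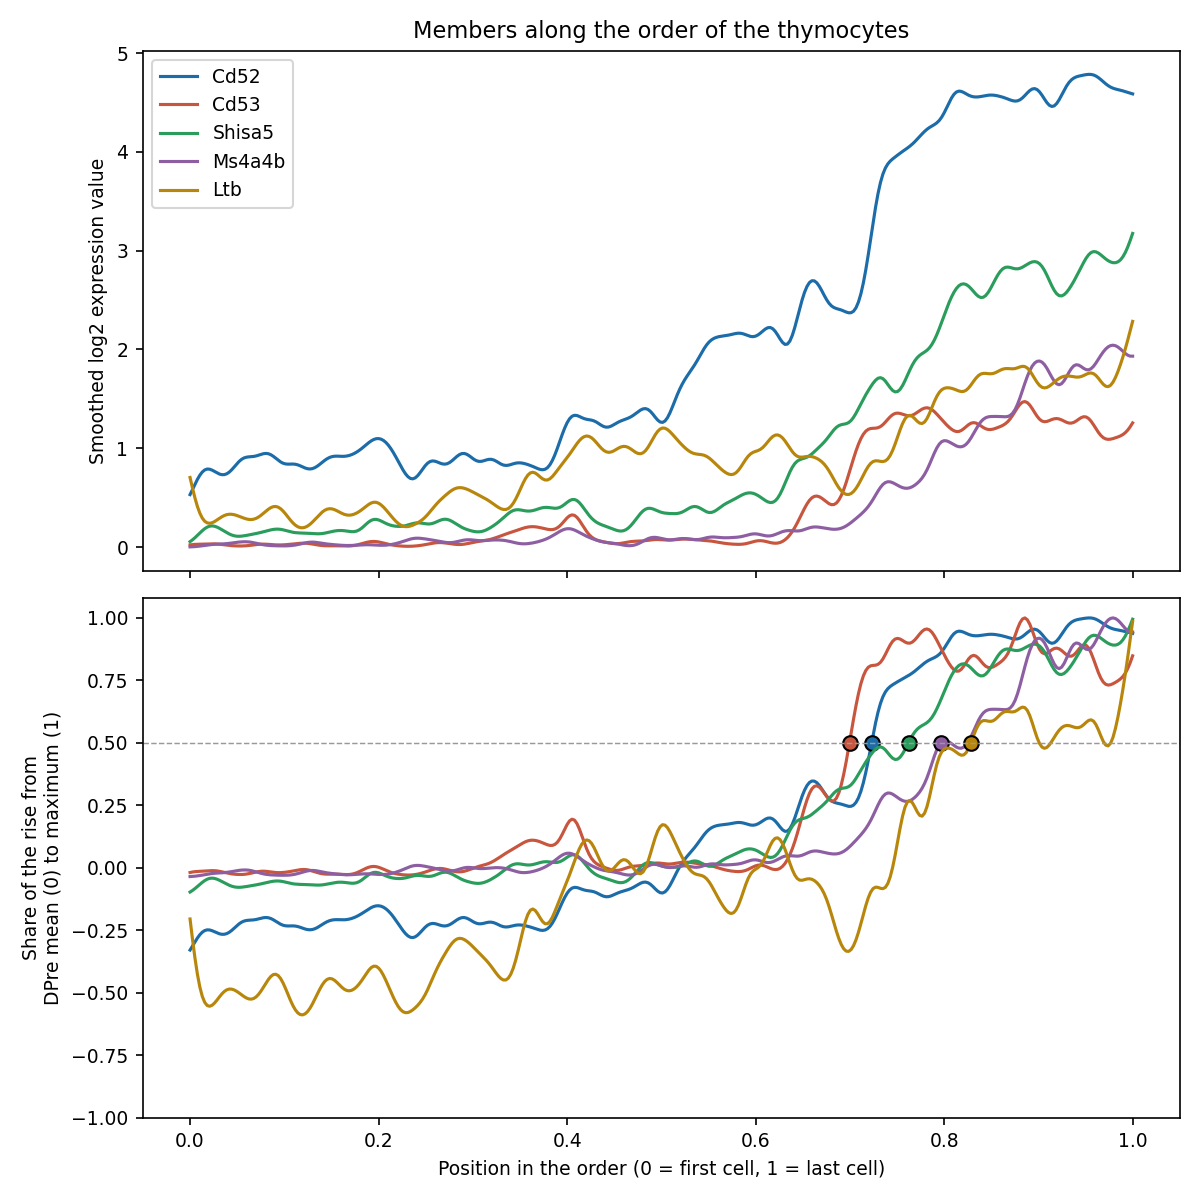
The upper panel plots the smoothed log2 expression value of each gene against the position of the cells in the order (0 first, 1 last); the lower panel gives the same curves as a share of the rise from the DPre mean (0) to the maximum (1), with a point at the midpoint of each gene. The points run from Cd53 at 0.699 to Ltb at 0.828, and the Ltb curve falls below its DPre mean near the point of Cd53.

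Cells around the start of the rise showed which gene was present without another. In the 336 cells of DPre 3 and late 1, thinned, Cd52 was detected without Cd53 in 219 cells and Cd53 without Cd52 in 8, so that Cd52 was the one present in 96.5% of these cells (exact 95% interval 93.2 to 98.5%). Shisa5 was detected without Ms4a4b in 115 cells and the reverse in 19, 85.8% (78.7 to 91.2%). Ltb was detected without Ms4a4b in 127 cells and Ms4a4b without Ltb in 16. Shisa5 and Ltb were found alone about equally often, 45.5% for Shisa5 (37.7 to 53.4%). Cd53, the first gene by midpoint, was the one present in 23.2% of the cells with only Cd53 or only Shisa5 (16.1 to 31.6%) and in 22.7% of those with only Cd53 or only Ltb (16.2 to 30.2%), against the order of the midpoints. The pair of Cd52 and Cd53 and that of Ltb and Ms4a4b also ran against that order, while that of Shisa5 and Ms4a4b ran with it. These counts follow the overall level of each gene as well as its onset.

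Cells with several of the genes were found mainly in late 3, late 4 and late 5. Of thinned cells, none of the 5 genes was detected in 51.5% of ISP, 48.1% of DPbla, 23.1% of DPre 1 and 4.32% of late 1 cells. At least 4 of the 5 were detected in 10.5% of late 1, 25.7% of late 2, 62.0% of late 3, 64.6% of late 4 and 77.0% of late 5 cells. All 5 were detected in 3 of 162 late 1 cells and in 51 of 148 late 5 cells (34.5%).

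**Figure D3:**
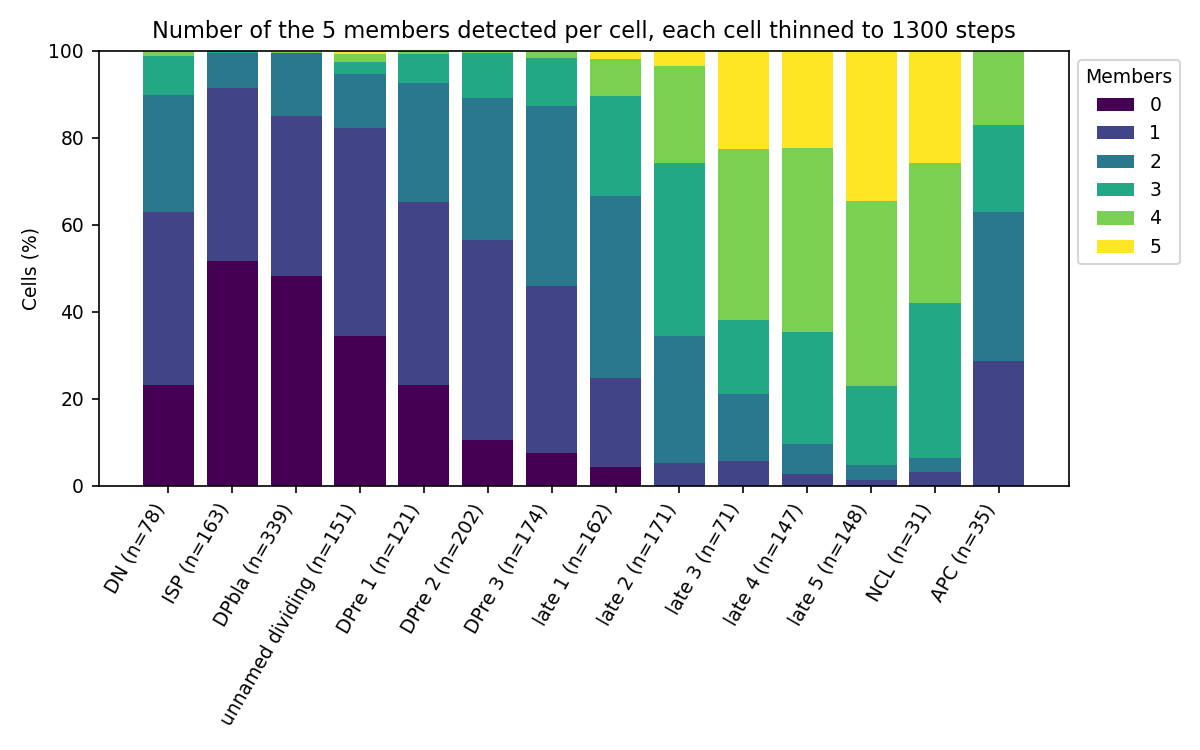
Stacked bars give the percent of cells of each cluster in which 0 to 5 of the genes were detected after each cell was thinned to 1300 steps. The share with all 5 is 1.85% in late 1, 3.51% in late 2, 22.5% in late 3 and 34.5% in late 5.

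Among the most mature cells Ms4a4b was higher in cells that held genes of exit, and Ltb was not. Klf2 is a transcription factor that controls exit from the thymus, and S1pr1 encodes the receptor that draws cells into the blood. In late 4 and late 5 cells, Ms4a4b was 2.13 in cells with Klf2 above 0 and 1.39 in the 83 of 295 cells without, a difference of 0.74 that had rank 6 of 6842 genes, of which 0.205% were higher by at least 0.5. It was 0.57 higher with S1pr1 above 0, rank 5 of 7033 genes (0.0853%). Each difference is below the SD over cells, which was 1.25 in cells with Klf2. Within late 4 the differences were 0.64 for Klf2 and 0.80 for S1pr1, and within late 5 they were 0.48 and 0.17. In late 4, cells with these genes above 0 were deeper, with medians of 2786 and 2092.5 steps for Klf2 and 3061.5 and 2215 for S1pr1, and the differences there were 0.44 and 0.39 after thinning. After thinning, the differences in late 4 and late 5 together were 0.58 for Klf2 and 0.26 for S1pr1, and that for S1pr1 within late 5 was -0.02, so this last one is not seen in late 5. In late 5 the median depth was 2172 steps with S1pr1 and 2235 without. The difference in Ltb was -0.27 for Klf2 and 0.02 for S1pr1, well inside its SDs, with ranks of 6815 of 6842 genes for Klf2 and 2262 of 7033 for S1pr1, and that for Klf2 within late 5 was 0.09 after thinning. The difference between late 5 and late 4 was 0.57 in Ms4a4b and -0.18 in Ltb.

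The NCL cluster was close to the most mature cells in Shisa5 and Ms4a4b and lower in Cd52 and Ltb, by less than the SDs. In NCL cells Shisa5 was 2.85 ± 0.58 (SD, n = 31 cells) and Ms4a4b 1.89 ± 1.12, close to late 4 and late 5 together (2.85 and 1.93). There Cd52 was 4.29 ± 0.61, Cd53 1.06 ± 0.86 and Ltb 1.47 ± 1.19, with differences from late 4 and late 5 of -0.39 (rank 7073 of 7149 genes), -0.16 and -0.43 (rank 7086). In APC cells Cd52 was 3.84 ± 1.04 (SD, n = 35 cells), whereas Ms4a4b was 0.05 ± 0.14 and was detected in 8.57% of thinned cells (1.80 to 23.1%). Of the APC cells, 18 had a B cell marker above 0, and in these Ltb was 1.62 ± 1.32 and Cd53 1.18 ± 1.12, against 0.47 ± 0.67 and 0.47 ± 0.74 in the other 17. The APC markers H2-Aa, H2-Ab1, H2-Eb1 and Cd74 were at most 0.45 in any late cluster and between 3.45 and 5.46 in the APC cluster, and Ms4a1 was at 0 in all 5 late clusters. Of 6 NCL markers in the table, Klrb1c, Klrd1, Il2rb and Fcer1g were at most 0.18 in any late cluster, while Nkg7 was 1.14 in late 4 and Id2 was 1.29 in late 2 and 0.59 in late 4. The part of such cells in the levels of the 5 genes was not tested.

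Relatives of the 5 genes were counted between late and early cells, where 0.682% of all genes were higher and 1.81% lower by at least 0.5. Of 10 other tetraspanins tested, 2 were higher, Tspan32 by 0.63 and Cd37, a tetraspanin of leukocytes, by 0.51, and none lower (median of the list 0.02, of all genes -0.00263). Of 3 other MS4A genes none was, and the closest was Ms4a6b at 0.48. Of 2 other TNF ligands and 7 TNF receptors none was, with Cd40lg at 0.19 and Cd27 at 0.41. Of 9 other GPI-anchored proteins none was higher and 4 were lower, with differences of -2.24 for Ly6d, -1.63 for Ly6e, -1.29 for Thy1 and -0.55 for Cd24a, the direction opposite to that of Cd52. Of 17 p53 and cell death genes 1 was higher, Bcl2, an inhibitor of cell death, by 1.08, and Trp53 itself differed by 0.11; Shisa5 was the only gene of its family in the table. Of 20 genes of exit and maturity 4 were higher, among them B2m and H2-D1 of MHC class I, by 1.26 and 1.24, and 1 was lower. Of 10 genes of the T cell program 1 was higher, Ptprc (CD45), by 0.59, and 2 were lower, with differences of -0.97 for the recombinase gene Rag1 and -1.44 for Arpp21.

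By Pearson's r over the 1993 cells and 5394 other genes, the closest partner of Cd52 (0.74), Cd53 (0.61) and Shisa5 (0.69) was Tmsb10, which encodes a thymosin that binds actin. The closest partner of Ms4a4b was Klf2 (0.58) and that of Ltb was H2-K1 (0.40). H2-D1 and Ifi27l2a, an interferon-inducible gene, were among the 5 closest of all 5 genes. Within the 699 late cells the r of Tmsb10 fell to 0.40 with Cd52, 0.27 with Cd53 and 0.23 with Shisa5, while that of Klf2 with Ms4a4b was 0.49. Between pairs of the 5 genes, r within late 1, late 2, late 4 or late 5 ran from -0.11 to 0.42, and 32 of 40 values lay between -0.2 and 0.2. The cells of 1 library share depth and stage, and these values are descriptions.

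Chromatin at the 5 genes was read from the scATAC-seq counts as counts in the peaks nearest to a gene per 10000 counts in all peaks, with exact Poisson 95% intervals. The rule for the genes did not use these counts. The peaks are windows of 4000 bp that overlap, yet a read was not counted in every window it falls in: of 53103 windows covered by their neighbours on both sides, 9766 held more counts than both neighbours together. Sums over windows are therefore not simply double counts, and a position is best read from the window's center. The sorted cells had medians of 2571 to 3935.5 counts per cell.

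At Cd53, sorted DP cells had 0.27 counts per 10000 (0.14 to 0.46). The value was 1.29 for the CD4 sort (1.01 to 1.62), 1.46 for the CD8 sort (1.14 to 1.83) and 0.90 for the DN sort (0.73 to 1.10). The intervals of both SP sorts and of the DN sort lie above that of the DP sort when all cells of a sort are pooled. The cells carry label numbers that fall in blocks of 1000, and within the blocks that hold both sorts the DN and DP intervals were not apart. In the block from 4000 the DN sort had 0.51 (0.25 to 0.91) and the DP sort 0.25 (0.10 to 0.52), and in the block from 31000 they had 0.41 (0.08 to 1.19) and 0 (0 to 0.69). The DN value was 1.24 (0.89 to 1.67) in the block from 1000, which holds no DP cells. The ratio of CD4 and CD8 sorted cells together (SP) to DP cells was 5.03 (exact 95% interval 2.85 to 9.68), rank 77 of 8085 genes. A count in these peaks was found in 29.4% of SP cells (23.6 to 35.6%) and in 6.40% of DP cells (2.80 to 12.2%).

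The 4 other genes had smaller ratios. At Shisa5, accessibility was 1.15 counts per 10000 in DP (0.87 to 1.497), 2.47 in CD4 (2.08 to 2.92) and 1.98 in CD8 sorted cells (1.61 to 2.41), with a SP to DP ratio of 1.95 (1.45 to 2.66). There the DN sort, at 1.68 (1.45 to 1.94), overlapped the DP and CD8 sorts in these intervals, with a DN to DP ratio of 1.46 (1.07 to 2.01). At Ms4a4b accessibility was 0.31 in DP (0.18 to 0.52), 0.66 in CD4 (0.47 to 0.91) and 0.69 in CD8 sorted cells (0.48 to 0.96), with a ratio of 2.15 (1.22 to 4.04), and DN cells, at 0.29 (0.20 to 0.41), overlapped DP cells in these intervals. Over the peaks that do not overlap, the intervals of the ratio include 1 for Shisa5 (1.61, 0.97 to 2.80) and for Ms4a4b (2.54, 0.97 to 8.44). At Cd52 it was 0.40 in DP (0.24 to 0.62), 0.95 in CD4 (0.71 to 1.24), 0.63 in CD8 (0.43 to 0.89) and 0.86 in DN sorted cells (0.69 to 1.05), with a ratio of 2.01 (1.21 to 3.50). At Ltb no difference was detectable at this depth, with 0.79 in DP (0.56 to 1.09), 0.91 in CD4 (0.68 to 1.20) and 0.59 in CD8 sorted cells (0.39 to 0.84) and a ratio of 0.96 (0.64 to 1.45). Of the 5 genes, 4 were higher in SP cells by at least 1.5-fold, as were 19.2% of 8085 genes with at least 50 counts.

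**Figure D4:**
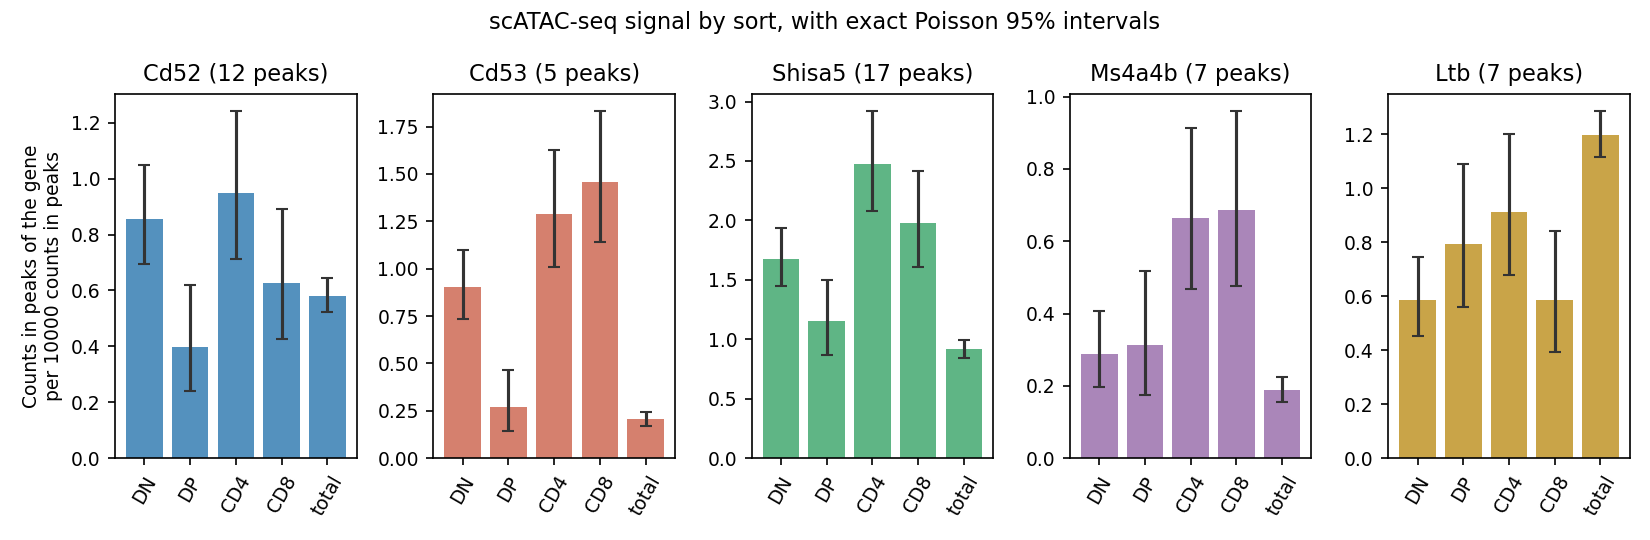
Bars give counts in the peaks nearest to each gene per 10000 counts in peaks, by sort (DN, DP, CD4, CD8) and in total thymocytes, and lines are exact Poisson 95% intervals. At Cd53 the DP bar is 0.27 and the CD4 and CD8 bars are 1.29 and 1.46, whereas at Ltb the bars of all sorts lie between 0.59 and 0.91 and total thymocytes are at 1.20.

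Single peaks near a gene differed from one another. Near Cd53, the peak whose center lies in an intron 4708 bp downstream of the start had 1 count in DP cells and 30 in SP cells, a ratio with counting interval of 13.6 (2.27 to 556). The peak at 1486 bp, also in an intron, had 6 counts in DP and 50 in SP cells, a ratio of 3.79 (1.62 to 10.8), and the peak at 20 bp, in an untranslated part of an exon, had 1 and 21 counts. Of 19856 single peaks with at least 20 counts, 16% were higher in SP cells by at least 2-fold. The central 200 bases of the intronic peak at 4708 bp are shown because its ratio was the largest among the peaks of Cd53, with capitals for the Klf and Runx letters.
Cd53 intronic peak, chr3:106785341-106785540, minus strand: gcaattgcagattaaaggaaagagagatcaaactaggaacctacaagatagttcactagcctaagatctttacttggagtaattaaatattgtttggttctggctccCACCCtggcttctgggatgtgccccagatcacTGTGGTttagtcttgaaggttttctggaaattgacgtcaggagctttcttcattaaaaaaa

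Near Cd52 the peak over the start and the peaks before it differed. The peak at -48 bp from the start had 11 counts in DP and 14 in SP cells, a ratio of 0.58 (0.24 to 1.41), while the peak at -2271 bp, between genes, had 1 and 21 counts, 9.54 (1.53 to 394.5). The peak at -1944 bp had 0 counts in DP and 12 in SP cells. Over the peaks that do not overlap, which keep the start peak and 1 other, the SP to DP ratio of Cd52 was 0.72 (0.33 to 1.62), and over the peaks that hold the start it was 1.17 (0.61 to 2.34), so the direction for Cd52 depends on which peaks are summed. Near Shisa5 the peak centered just before the start of the gene had 6 counts in DP and 7 in SP cells, a ratio of 0.53 (0.15 to 1.91). This value is opposite in direction to the sum over the gene, with an interval that includes 1. Shisa5 has 14 annotated starts, and over the 15 peaks that hold one the ratio was 1.84 (1.34 to 2.55). The intronic peak at 13188 bp had 3 and 24 counts, a ratio of 3.63 (1.10 to 18.9). Near Ms4a4b all peaks within 10 kb of the start had more counts per 10000 in SP than in DP cells, and each interval of a ratio included 1. Near Ltb the peak over the start, centered at 18 bp, had 17 counts in DP and 36 in SP cells, 0.96 (0.53 to 1.83).

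**Figure D5:**
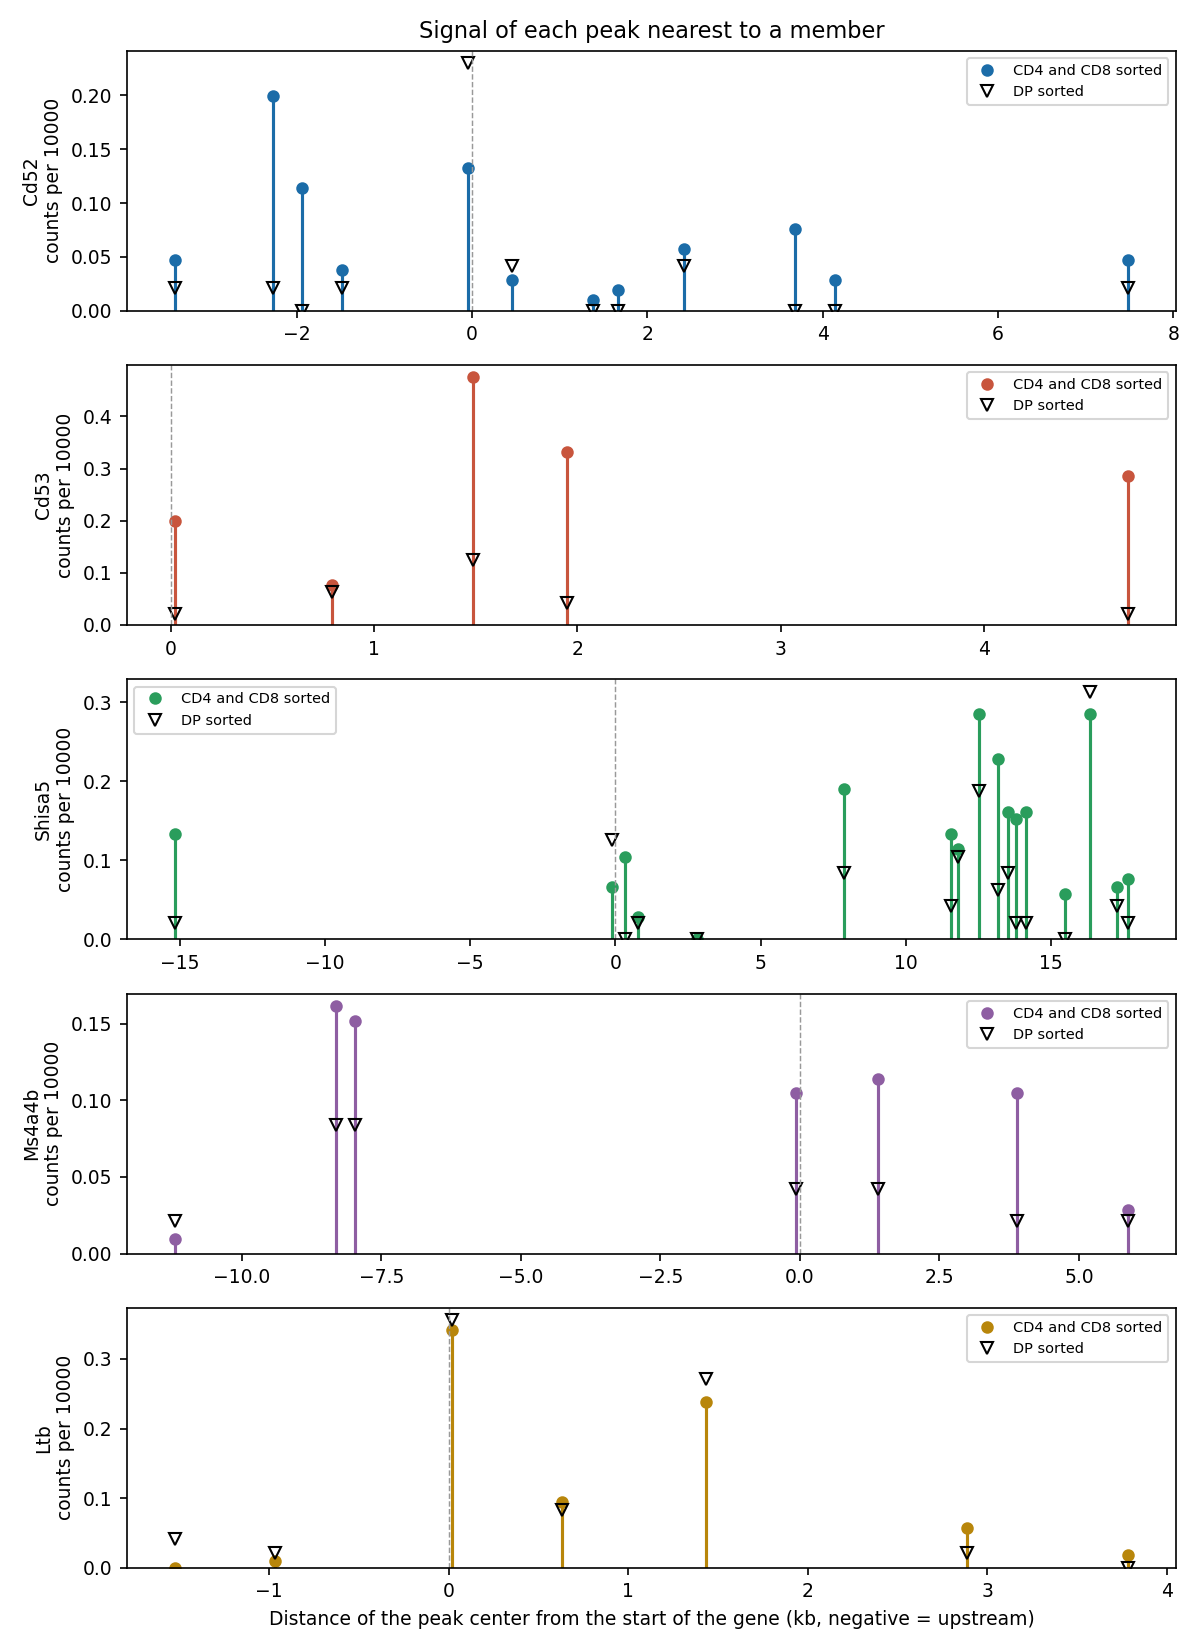
Each panel gives 1 gene, with the distance of each peak's center from the start of the gene in kb (negative is upstream) and its counts per 10000 counts in peaks in CD4 and CD8 sorted cells together (circles) and DP sorted cells (triangles). The Cd53 peak at 4708 bp is at 0.29 in SP and 0.02 in DP cells, and the Cd52 peak at -48 bp is at 0.13 and 0.23.

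All 4 sorts occur in the blocks of label numbers from 4000 and from 31000. Within the block from 4000, the SP to DP ratio was 5.57 (2.63 to 14.1) for Cd53, 2.36 (1.56 to 3.70) for Shisa5, 2.57 (1.23 to 6.19) for Ms4a4b, 1.94 (1.05 to 3.92) for Cd52 and 0.84 (0.53 to 1.37) for Ltb. The block from 31000 was shallow, with 29 DP cells, and there Cd53 had 15 counts in CD4, 0 in CD8 and 0 in DP cells, so no ratio is given. The ratios of the others there were 2.58 for Shisa5 (1.00 to 8.48), 1.17 for Ms4a4b (0.09 to 61.7), 2.74 for Cd52 (0.35 to 124) and 3.13 for Ltb (0.42 to 139), from 5 DP counts at most.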

How the data were processed

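Thymocytes of C57BL/6 mice were measured by droplet scRNA-seq (3′ kit, version 2) and by scATAC-seq. For scRNA-seq the authors aligned reads with Cell Ranger 1.3.1 to GRCm38.p5, removed ribosomal, mitochondrial and pseudogene transcripts, filtered cells and genes, and deposited log2 values after quantile normalization. For scATAC-seq the authors used Bowtie2 for mapping and Picard to drop duplicates; MACS2 peaks came from the pooled cells, and the deposited values are raw counts for each peak in each cell. The build of the peak table was checked as GRCm38: 27.9% of peak centers fell within 2 kb of a coding start, compared with 9.41% when all were moved by 100000 bp. Of the scATAC-seq columns, 362 without a set number or sort in their name were not used here.

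The members and gene lists were chosen with earlier results of these data known. Cells were clustered in Seurat 5.3.0 (R 4.3.3; 20 principal components, 30 neighbors, resolution 2) and named from fixed markers. A cluster whose best mean marker score led the next by under 0.2, or with more markers of another class among its top 10 genes, stayed unnamed, a rule set after seeing the data. Early cells are DN, ISP, DPbla, DPre and the unnamed dividing cluster; late cells are late 1 to late 5. Doublets were not called; leaving out the 5% of cells with most genes per cluster was an alternative. The order used 10 neighbors, 10 sink cells and smoothing over 1% of the cells. Differences were taken over genes above 0 in at least 5% of cells of either group. Named genes were the members, their 5 closest partners among genes above 0 in at least 10% of cells, and up to 4 genes per list. Steps stand in for depth and are not reads. A peak was given to the nearest coding start (GENCODE vM21). The mean difference between groups, the midpoint of a rise, the interval of a count ratio and the thinning were tested on simulated data. The order of the cells, the cluster names, the pair counts, the r values, the assignment of peaks and the letter search were not. Python 3.11.15, numpy 2.4.6, scipy 1.17.1 and scikit-learn 1.9.0 were used. A further comparison within late 4 and late 5 is not reported here.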

Additional observations from a re-analysis of the deposited data

How the results depend on the processing

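No paired analysis was possible because the labels number cells and not replicates; the values within shared blocks of label numbers stand in its place. Of 196 alternative values for 69 results, 187 moved by less than the SD over single cells, the counting interval or, for positions, 0.05 of the order. The SD over cells is a wide bound for a mean over many cells, so this count says little of stability: the late minus early difference of Ltb was 0.75 and, thinned and on the log2(1 + steps) scale, 0.45, and the difference of Ms4a4b by S1pr1 was 0.57 in late 4 and late 5 together and 0.17 in late 5 alone. The 35 alternatives for the late minus early differences kept their direction. Counting detected or not moved the midpoint of Cd52 to 0.607 and of Shisa5 to 0.672. Sink cells from each lineage moved the midpoint of Ms4a4b to 0.734 and of Ltb to 0.754. Thinning moved the Cd52 level in late cells to 2.62, on another scale. Of the SP to DP accessibility ratios, Cd52 turned to 0.72 in peaks that do not overlap and went to 1.17 in peaks that hold the start. In cells with label numbers from 31000 Ms4a4b went to 1.17 and Ltb to 3.13, and Cd53 had no DP count there and no ratio. The cause was not tested, but the first of these settings drops 10 of the 12 Cd52 peaks and the block from 31000 has 29 DP cells. The comparisons of Ms4a4b and Ltb by Klf2 and S1pr1 within late 4 and within late 5 were chosen after seeing the data.

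The precision is limited by 13 to 55 DP counts per gene in scATAC-seq, and several counts can come from 1 cell, which the intervals do not cover. In scRNA-seq, shares in thinned cells are bounded by 1300 steps per cell.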

Other observations

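Total thymocytes are the unsorted scATAC-seq cells, and their labels put them in 36 numbered sets whose meaning is not given. Over these sets, the counts per 10000 at the peaks of Ltb had a median of 1.13 (0.40 to 2.28), those of Shisa5 0.93 (0.21 to 1.76), Cd52 0.54 (0.09 to 1.35), Cd53 0.16 (0 to 0.87) and Ms4a4b 0.13 (0 to 0.55). At Ltb, total thymocytes pooled were at 1.20 (1.12 to 1.29), with an interval above those of DN, DP and CD8 sorted cells and overlapping that of CD4 sorted cells, and a count was found in 42.1% of cells (39.1 to 45.1%) against 20.0% of DP sorted cells (13.4 to 28.1%). Total thymocytes were also deeper per cell than the sorts (median 5792 counts), and no set holds both total and sorted cells, so set and sort cannot be told apart.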
